A study of Homo sapiens with 24 samples.

Results

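The genes described here are 9 members of the E2F and RB pathway: the activators E2F1, E2F2 and E2F3, the repressors E2F5, E2F6, E2F7 and E2F8, the dimerisation partner TFDP2, and RB1. They were taken as a list of symbols and matched to the Ensembl identifiers of the count tables. All 9 were found among the 60675 genes of each table, and all 9 passed the filter on low counts in every comparison. RNA-seq had been performed on 2 human kidney cell lines, ACHN, a renal cancer line whose label reads ccRCC, and HK2 (HK-2), an immortalised proximal tubule epithelial line. Each line was studied in 4 groups of 3 libraries, 24 libraries in all. The groups were a control hairpin (shNC), a hairpin against the H3K4 demethylase gene KDM5C (shKDM5C), a hairpin against the transcription factor gene YY1 (shYY1), and both hairpins together (Dsh).

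Every group, the controls included, carried a stably integrated hairpin vector. Lentiviral infection was followed by puromycin selection, and the Dsh cells were made from YY1-depleted cells by a second infection with a GFP-marked KDM5C hairpin, so a Dsh cell had been infected and selected once more than a cell with a single hairpin. The methods describe more than 1 hairpin per gene and do not say which of them was sequenced. The methods state in general that quantitative experiments were done as independent repeats, but they do not name the sequencing, and the labels do not say that the 3 libraries of a group came from separate cultures, so the p-values measure the spread between these libraries, which may be technical. HK-2 cells are known to carry papillomavirus E6 and E7 genes, and the E7 protein binds the RB protein. The RNA of RB1 therefore does not tell how much RB protein was free to act in that line.

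E2F proteins are transcription factors that, mostly as dimers with a DP protein, control the genes a cell needs to copy its DNA. In resting cells the RB protein and its relatives p107 and p130 hold E2F on its target promoters in a repressive complex. Cyclin-dependent kinases phosphorylate RB late in G1, E2F is released, and the S phase genes are switched on. E2F7 and E2F8 close the loop: they bind the same kind of site without a DP partner or RB and turn these genes off again, E2F1 among them. RB1 is a classic tumour suppressor gene.

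Library totals lay between 15926561 and 24272298 counts. The targeted genes were lower in the groups that carried their hairpins. In ACHN cells KDM5C changed by -0.73 (shKDM5C) and -0.80 (Dsh) on the log2 scale, and YY1 by -0.88 (shYY1) and -0.51 (Dsh). In HK2 cells the values were -1.74 and -1.49 for KDM5C and -1.70 and -1.49 for YY1. Thus the depletion was deeper in HK2 cells, and YY1 in ACHN cells was 1.27-fold higher in Dsh than in shYY1 cells (adjusted p = 5.36e-05). Kidney epithelial markers were at a mean of 1 CPM (counts scaled to a common library size) or more for 7 of 8 genes in ACHN and 8 of 8 in HK2 cells, whereas 0 of 5 and 1 of 5 blood cell markers and 0 of 3 endothelial markers in either line were. Replicate 1 of HK2 shKDM5C stood apart. Its counts differed from those of replicates 2 and 3 by a chi-square of 123.085 and 128.933 per degree of freedom, against 1.943 to 6.97 for every other pair of replicates. Without it KDM5C was at -1.51 in HK2 shKDM5C cells (adjusted p = 1.26e-16). With it the adjusted p was 0.0184, and the call was lost on leaving out any 1 of the other 5 libraries (adjusted p between 0.0632 and 0.151). Members' results that rest on this library are given with and without it. The exception is the alternative fits with all HK2 groups, which kept it and were not repeated without it.

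The promoters are shown first for the 3 activators, E2F1, E2F2 and E2F3, and for the repressor E2F7, because E2F genes are themselves targets of E2F proteins. Entries of the RefSeq promoter table (GRCh38.p14) were read for 7 of the 9 members. No entry was read for E2F5 or E2F8, so their promoters are not described. The RB1 entry marks a start site inside the gene and is not printed. Each line gives the 250 bases before the annotated start, 5′ to 3′ on the gene's own strand, with E2F words in capitals. The words searched, on both strands, were TTTCCCGC, TTTGGCGC, TTTCGCGC and TTTGCCGC. The regions are chr20:33686386-33686635 (minus strand) for E2F1, chr1:23531234-23531483 (minus strand) for E2F2, chr6:20401629-20401878 (plus strand) for E2F3 and chr12:77065570-77065819 (minus strand) for E2F7.
E2F1: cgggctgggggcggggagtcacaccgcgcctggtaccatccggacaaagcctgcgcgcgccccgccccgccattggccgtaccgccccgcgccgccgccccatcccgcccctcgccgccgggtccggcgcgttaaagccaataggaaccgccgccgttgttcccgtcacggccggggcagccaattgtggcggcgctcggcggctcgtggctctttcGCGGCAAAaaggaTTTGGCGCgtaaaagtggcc
E2F2: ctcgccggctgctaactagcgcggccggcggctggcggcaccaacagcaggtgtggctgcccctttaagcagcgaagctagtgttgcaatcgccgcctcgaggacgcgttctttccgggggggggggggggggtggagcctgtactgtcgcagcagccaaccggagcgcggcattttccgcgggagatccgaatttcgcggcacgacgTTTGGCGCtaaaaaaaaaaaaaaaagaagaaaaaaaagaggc
E2F3: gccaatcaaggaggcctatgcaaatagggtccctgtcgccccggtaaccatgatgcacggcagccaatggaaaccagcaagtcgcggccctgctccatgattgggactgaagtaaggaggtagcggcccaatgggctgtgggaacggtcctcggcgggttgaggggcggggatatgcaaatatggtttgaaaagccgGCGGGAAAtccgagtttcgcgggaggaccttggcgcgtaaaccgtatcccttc
E2F7: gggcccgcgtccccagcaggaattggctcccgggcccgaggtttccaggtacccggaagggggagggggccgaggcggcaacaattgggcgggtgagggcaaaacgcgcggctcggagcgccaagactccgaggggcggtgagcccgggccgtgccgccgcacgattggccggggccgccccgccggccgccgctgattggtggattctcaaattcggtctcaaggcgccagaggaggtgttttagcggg
E2F1 held 2 such words, at -33 and -20 from the start, E2F2 held 1 at -42, and the first E2F3 promoter held 1 at -53. The windows of E2F6, E2F7 and TFDP2 held none of these letters. Of all 35116 promoters in the table, 2.79% had such a word in the 250 bases before the start. A YY1 word, AANATGGC on either strand, was found after the start in E2F6 (at 19) and E2F3 (at 27), and in 6.58% of all 300-base promoter windows. These matches are descriptions of the letters and not evidence of binding.

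In control cells the members stood in a different order in the lines (levels in CPM per kilobase of merged exons, which allows genes of different length to be compared, mean of 3 libraries). In ACHN shNC cells RB1 was highest at 15.8, followed by E2F3 at 9.42 and E2F1 at 8.48. E2F6 at 6.24 and E2F7 at 6.19 overlapped between libraries, and then came E2F8 at 4.15, TFDP2 at 3.56, E2F2 at 1.78 and E2F5 at 1.57. In HK2 shNC cells E2F1 led at 32.3, ahead of E2F3 at 17.3, RB1 at 14.7, E2F7 at 9.08, TFDP2 at 8.52 and E2F6 at 6.33. E2F2 at 4.08 and E2F8 at 3.68 overlapped, and E2F5 was again lowest at 2.61. Every other pair of neighbours in these 2 orders was separated in all libraries.

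Compared with control HK2 cells, control ACHN cells had lower RNA of 6 members and higher RNA of RB1, 7 of 9 called at an adjusted p below 0.05, against 76.6% of all genes tested. Since most genes differed between the lines, the share of the members is close to this background. E2F1 had the widest gap and was 3.79-fold lower in ACHN cells (log2 -1.92, SE 0.0618, adjusted p = 7.5e-21). TFDP2, which encodes a DP subunit that lets E2F proteins bind DNA, was 2.38-fold lower and E2F2 2.28-fold lower. E2F3, E2F5 and E2F7 were lower by 0.87, 0.72 and 0.54 on the log2 scale (-0.87, -0.72 and -0.54). RB1 was higher by only 0.12 (adjusted p = 0.0174), a call lost without HK2 shNC replicate 3 (adjusted p = 0.0559), with total counts in place of TMM (0.221) and with all groups in the fit (0.403). The RNA of E2F6 (log2 -0.01, SE 0.0761) and E2F8 (0.18, SE 0.1) did not pass the test, although E2F8 did without ACHN shNC replicate 1 (0.26, adjusted p = 0.0461). CDKN2A, the gene of the p16 inhibitor upstream of RB, was at 313 ± 24.9 CPM (SD, n = 3) in HK2 and 2.16 ± 0.176 CPM (SD, n = 3) in ACHN control cells.

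The plot of levels by library shows the central pattern. In both lines the activators E2F1 and E2F2 and the repressor E2F8 fell in Dsh cells, while the repressor E2F7 rose.

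**Figure D1:**
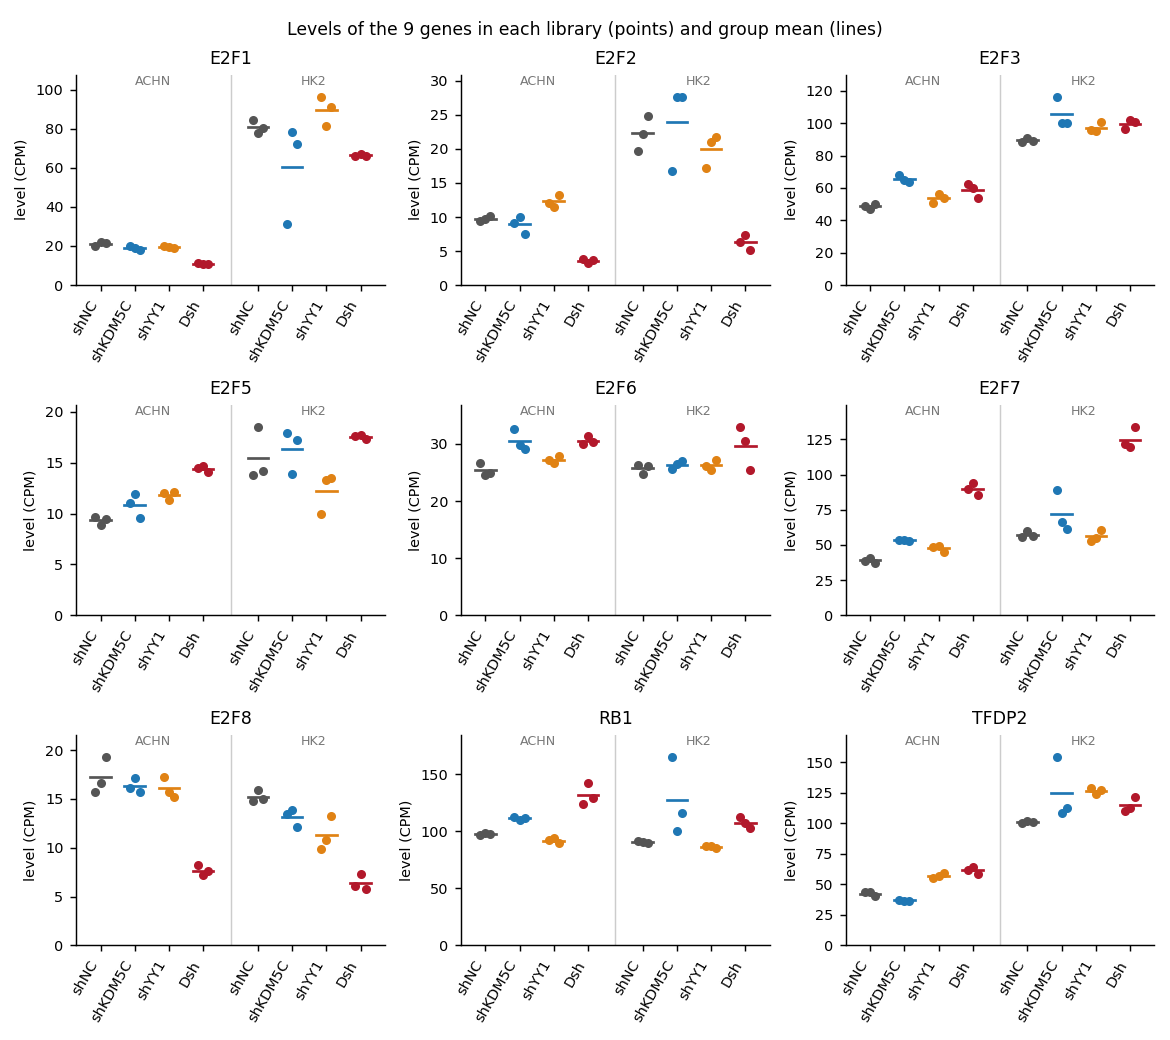
Level of each member in CPM (linear axes from 0), with 1 point per library, a line at the mean of each group of 3, ACHN on the left and HK2 on the right of each panel. E2F2 and E2F8 are lowest in the Dsh libraries of both lines and E2F7 is highest there. The HK2 shKDM5C library that lies apart for E2F1 (31.2 CPM), RB1 (165 CPM) and TFDP2 (154 CPM) is replicate 1.

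To learn whether the members responded to the loss of both factors, Dsh cells were compared with shNC cells. In ACHN cells all 9 members were called, 3 lower and 6 higher, beside 32.0% of all genes called lower and 30.7% called higher. The 9 calls were made with DESeq2, under every other scaling, filter and fit tried and with each library left out, while 3 of them (E2F2, E2F7 and E2F8) also reached a log2 fold change of 1. In HK2 cells 7 of 9 were called, 3 lower and 4 higher, beside 24.3% lower and 25.5% higher among all genes. The members called lower were the same in both lines, E2F1, E2F2 and E2F8. E2F3, E2F7, RB1 and TFDP2 were higher in both, and E2F5 and E2F6 were called in ACHN cells. In bulk RNA, fewer cells in 1 phase of the cell cycle and less RNA per cell cannot be told apart.

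E2F1 is the founding activator and promotes entry into S phase. In ACHN cells it measured 20.1, 21.9 and 21.7 CPM in shNC libraries, 19.8, 18.9 and 17.7 in shKDM5C, 20.1, 19.6 and 19.0 in shYY1, and 11.2, 10.5 and 10.9 in Dsh. The Dsh libraries lay below all others without overlap. E2F1 fell 1.95-fold in ACHN Dsh against shNC cells (log2 -0.96, SE 0.0907, adjusted p = 2.94e-08). In HK2 cells the values were 84.3, 77.9 and 80.5 CPM in shNC, 31.2, 78.1 and 72.1 in shKDM5C, 96.2, 81.2 and 91.0 in shYY1, and 66.1, 67.0 and 66.1 in Dsh. The decrease in HK2 Dsh cells was smaller, 1.21-fold (log2 -0.28, SE 0.0573, adjusted p = 0.000167). With all 4 HK2 groups in the fit, replicate 1 of shKDM5C among them, it was no longer called (adjusted p = 0.432).

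E2F2, a second activator, showed the largest decrease of the 9 in both lines. Its ACHN libraries measured 9.36, 9.67 and 10.1 CPM in shNC, 9.18, 10.0 and 7.49 in shKDM5C, 12.1, 11.5 and 13.3 in shYY1, and 3.84, 3.20 and 3.65 in Dsh. In HK2 cells it measured 19.7, 22.3 and 24.9 CPM in shNC, 16.8, 27.6 and 27.6 in shKDM5C, 17.2, 21.1 and 21.8 in shYY1, and 6.35, 7.29 and 5.22 in Dsh. Every Dsh library was thus below every other library of its line. The decreases were 2.71-fold in ACHN (log2 -1.44, SE 0.137, adjusted p = 3.39e-08) and 3.52-fold in HK2 cells (log2 -1.82, SE 0.134, adjusted p = 9.42e-13). At the lowest, a Dsh library held 58 counts of E2F2.

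The third activator, E2F3, went the other way. It rose from 48.6 ± 1.47 CPM (SD, n = 3) to 58.8 ± 4.49 CPM (SD, n = 3) in ACHN Dsh cells (log2 0.28, SE 0.0635, adjusted p = 0.000948). In HK2 cells the means were 89.3 ± 1.21 and 99.7 ± 3.06 CPM (SD, n = 3 each; log2 0.17, SE 0.0526, adjusted p = 0.00823), a call that was lost with all 4 groups in the fit (adjusted p = 0.234). The 2 activators that fell and the 1 that rose all held an E2F word in the promoters printed above.

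Among the repressors, E2F7 and E2F8 encode close relatives that repress the same kind of gene, and their RNA moved in opposite directions. In ACHN cells E2F7 measured 38.7, 41.0 and 37.4 CPM in shNC, 53.8, 53.2 and 52.7 in shKDM5C, 48.7, 48.9 and 45.1 in shYY1, and 89.6, 93.7 and 85.3 in Dsh. The HK2 values were 55.5, 59.8 and 56.4 CPM in shNC, 88.9, 66.1 and 61.7 in shKDM5C, 52.5, 55.3 and 60.7 in shYY1, and 122, 119 and 134 in Dsh. Dsh libraries were highest in each line. E2F7 rose 2.3-fold in ACHN (log2 1.20, SE 0.0583, adjusted p = 2.44e-12) and 2.2-fold in HK2 Dsh cells (log2 1.14, SE 0.0575, adjusted p = 1.11e-16).

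E2F8 measured 15.7, 16.7 and 19.2 CPM in ACHN shNC libraries, 16.1, 17.1 and 15.7 in shKDM5C, 17.3, 15.7 and 15.2 in shYY1, and 8.25, 7.17 and 7.59 in Dsh. In HK2 cells it measured 14.8, 15.9 and 15.0 CPM in shNC, 13.4, 13.9 and 12.1 in shKDM5C, 9.92, 10.8 and 13.2 in shYY1, and 6.06, 7.29 and 5.73 in Dsh. The Dsh libraries again lay below all others of their line. E2F8 fell 2.23-fold in ACHN (log2 -1.16, SE 0.111, adjusted p = 3.65e-08) and 2.38-fold in HK2 Dsh cells (log2 -1.25, SE 0.138, adjusted p = 5.46e-09).

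E2F5, which represses together with the RB relatives p130 and p107 in resting cells, rose in ACHN Dsh cells from 9.33 ± 0.409 to 14.4 ± 0.270 CPM (SD, n = 3 each; log2 0.63, SE 0.1, adjusted p = 2.34e-05). In HK2 cells it was at 15.5 ± 2.59 and 17.6 ± 0.225 CPM (SD, n = 3 each) and did not pass the test (adjusted p = 0.183), but did without shNC replicate 2, which was the highest control (log2 0.33, adjusted p = 0.0245). The reads were counted without strand, and 18.59% of the exon bases of E2F5 are shared with genes on the opposite strand. Reads from those bases cannot be told apart by strand, so the counts of E2F5 are uncertain. E2F6, a repressor that acts without RB in a Polycomb complex, rose by 0.27 in ACHN Dsh cells (SE 0.0716, adjusted p = 0.003). In HK2 cells its value was 0.21 (adjusted p = 0.0609), and without Dsh replicate 3 it was 0.32 (adjusted p = 0.00565).

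RB1 encodes the brake on the activators. It measured 96.5, 98.4 and 98.1 CPM in ACHN shNC, 112, 109.9 and 112 in shKDM5C, 92.0, 94.0 and 89.8 in shYY1, and 124, 142 and 129 in Dsh libraries. The increase in ACHN Dsh cells was 1.35-fold (log2 0.44, SE 0.0527, adjusted p = 7.73e-07). In HK2 cells RB1 was at 91.5, 90.8 and 89.6 CPM in shNC, 165, 101 and 116 in shKDM5C, 87.5, 87.0 and 85.5 in shYY1, and 113, 107 and 103 in Dsh libraries. It rose 1.19-fold in HK2 Dsh cells (log2 0.26, SE 0.053, adjusted p = 0.000148). TFDP2 rose by 0.54 in ACHN (SE 0.0605, adjusted p = 2.76e-07) and by 0.19 in HK2 Dsh cells (SE 0.0518, adjusted p = 0.00275). With all 4 HK2 groups in the fit neither RB1 (adjusted p = 0.275) nor TFDP2 (adjusted p = 0.346) was called in HK2 Dsh cells.

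**Figure D2:**
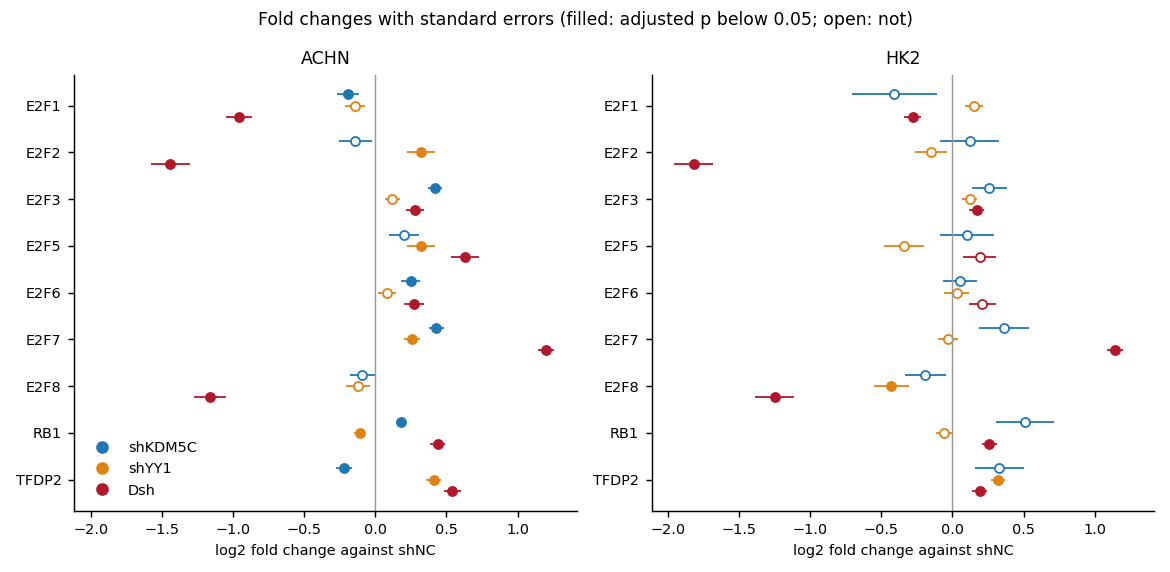
Log2 fold change of each member against shNC (x axis) with its standard error as a bar, for shKDM5C, shYY1 and Dsh cells of each line, filled where the adjusted p is below 0.05. The Dsh points of E2F2 (-1.44 and -1.82), E2F8 (-1.16 and -1.25) and E2F7 (1.20 and 1.14) lie far from those of the single knockdowns in both lines.

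The effect of losing 1 factor was asked with the single hairpins. In ACHN shKDM5C cells 6 of 9 members were called, 2 lower and 4 higher, beside 27.7% lower and 28.9% higher among all genes. E2F7 (log2 0.43, SE 0.0527, adjusted p = 1.22e-07) and E2F3 (log2 0.42, SE 0.0481, adjusted p = 4.67e-08) rose most. E2F6 rose by 0.25 and RB1 by 0.18, and TFDP2 fell by 0.22 on the log2 scale. E2F1 was lower by a small margin (log2 -0.19, adjusted p = 0.0366). That call was lost without shNC replicate 2 or 3 or shKDM5C replicate 2 or 3 (adjusted p = 0.114, 0.104, 0.06 and 0.145) and with DESeq2 (adjusted p = 0.0955). E2F5 was not called (adjusted p = 0.117) except without shKDM5C replicate 3 (log2 0.28, adjusted p = 0.0413). E2F2 and E2F8 did not pass the test (adjusted p = 0.308 and 0.388).

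In ACHN shYY1 cells 5 of 9 were called, 1 lower and 4 higher, beside 24.5% lower and 24.2% higher among all genes. TFDP2 rose from 42.3 ± 1.85 to 57.3 ± 2.11 CPM (SD, n = 3 each; log2 0.41, adjusted p = 3.28e-08), and E2F7 rose by 0.26 (adjusted p = 0.000168). E2F5 rose by 0.32 (adjusted p = 0.00773). E2F2, which fell in Dsh cells, was higher in shYY1 cells by 0.32 (adjusted p = 0.00821), a call lost without shYY1 replicate 3 (0.26, adjusted p = 0.0584). RB1 was lower by 0.11 (log2 -0.11, adjusted p = 0.0151), lost without shNC replicate 2 or shYY1 replicate 3 (adjusted p = 0.0554 and 0.0908) and with DESeq2 (adjusted p = 0.0613). E2F3 was not called (adjusted p = 0.0612) but was without shYY1 replicate 1 (0.15, adjusted p = 0.0239).

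In HK2 shKDM5C cells 0 of 9 members passed edgeR's test at the adjusted threshold, beside 0.656% lower and 0.668% higher among all genes. At an unadjusted p below 0.05 there was 1, RB1 (log2 0.51, SE 0.203, adjusted p = 0.302). Replicate 1 set the spread here, with RB1 at 165 CPM against 101 and 116 in the other two, TFDP2 at 154 against 108 and 113, and E2F1 at 31.2 against 78.1 and 72.1. Without it 3 members were called, beside 10.9% lower and 11.5% higher among all genes. E2F2 was higher by 0.30 (adjusted p = 0.0357), E2F3 by 0.16 (adjusted p = 0.0311) and RB1 by 0.25 (adjusted p = 0.00291). E2F1 was then at -0.11 (adjusted p = 0.213) and E2F7 at 0.15 (adjusted p = 0.102).

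In HK2 shYY1 cells 2 of 9 were called, beside 14.7% lower and 14.3% higher among all genes. E2F8 fell by 0.43 on the log2 scale (SE 0.125, adjusted p = 0.0118), a call lost without shYY1 replicate 1 (-0.35, adjusted p = 0.0612). TFDP2 rose by 0.32 (SE 0.0519, adjusted p = 4.96e-05), the one change of these 9 genes called higher after YY1 knockdown in both lines. Neither call held with all 4 groups in the fit (adjusted p = 0.117 and 0.187). Without shYY1 replicate 2, E2F1 (0.21, adjusted p = 0.0209) and E2F5 (-0.41, adjusted p = 0.0483) were called as well.

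Direct comparison of Dsh with the single knockdowns asked which changes went beyond 1 hairpin. In ACHN cells 7 of 9 members differed between Dsh and shKDM5C cells, beside 62.5% of all genes, and 7 of 9 between Dsh and shYY1 cells, beside 64.6%. E2F1 was lower in Dsh cells by 0.77 against shKDM5C and 0.84 against shYY1 (log2 -0.77 and -0.84), E2F2 by 1.29 and 1.77 (-1.29 and -1.77), and E2F8 by 1.07 and 1.06 (-1.07 and -1.06). E2F7 was higher by 0.77 and 0.92, and RB1 by 0.26 and 0.53. TFDP2 differed from shKDM5C cells (0.76, adjusted p = 9.73e-09) and did not pass the test against shYY1 cells (0.11, adjusted p = 0.103). E2F6 was not called against shKDM5C cells (0.02, SE 0.0717). Against shYY1 cells 2 weak calls, E2F5 (0.29, adjusted p = 0.0114) and E2F6 (0.17, adjusted p = 0.0315), depended on the shYY1 libraries. E2F5 lost its call without replicate 2 (adjusted p = 0.056), and E2F6 without replicate 1, 2 or 3 (adjusted p = 0.0943, 0.121 and 0.0648) and with DESeq2 (adjusted p = 0.0763). E2F3 passed the test in neither comparison (adjusted p = 0.0626 and 0.0709), but was called without Dsh replicate 1 against shKDM5C (-0.20, adjusted p = 0.0178) and without Dsh replicate 3 against shYY1 cells (0.21, adjusted p = 0.0102). TFDP2 against shYY1 was also called without Dsh replicate 3 (0.15, adjusted p = 0.0402).

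In HK2 cells 3 members differed between Dsh and shKDM5C cells, beside 11.9% of all genes, and 6 between Dsh and shYY1 cells, beside 47.7%. E2F2 was lower by 1.94 and 1.66 on the log2 scale (-1.94, adjusted p = 0.00394, and -1.66, adjusted p = 1.35e-09). E2F8 was lower as well (-1.06, adjusted p = 0.0118, and -0.82, adjusted p = 0.000151), and E2F7 was higher (0.78, adjusted p = 0.0304, and 1.17, adjusted p = 7.77e-13). Against shKDM5C cells the E2F7 call was lost without any 1 of the other two shKDM5C or the 3 Dsh libraries (adjusted p between 0.0829 and 0.138) and the E2F8 call without Dsh replicate 1 or 3 (adjusted p = 0.0836 and 0.0822). With shKDM5C replicate 1 left out, E2F2 (-2.12, adjusted p = 8.42e-12), E2F7 (0.98, adjusted p = 8.94e-12), E2F8 (-1.02, adjusted p = 1.24e-05) and E2F1 (-0.17, adjusted p = 0.0342) were called. Against shYY1 cells E2F1 was lower (-0.42) and E2F5 (0.53) and RB1 (0.32) were higher, with adjusted p = 1.03e-05, 0.00129 and 5.74e-05. With all groups in the fit E2F1 and RB1 were no longer called (adjusted p = 0.219 and 0.164). TFDP2 lay close to the threshold (-0.13, adjusted p = 0.0543) and was called with DESeq2 (0.0473), with 2 other scalings, RLE (0.0395) and library totals (0.0441), with the stricter filter (0.0456) and without Dsh replicate 3 (0.0233). E2F6 was called without Dsh replicate 3 (0.28, adjusted p = 0.023).

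Whether the double knockdown equalled the sum of its parts was tested as an interaction, the Dsh minus shYY1 difference less the shKDM5C minus shNC difference. In ACHN cells 7 of 9 members were called, beside 55.6% of all genes. Single effects on E2F2 of -0.14 (shKDM5C) and 0.32 (shYY1) summed to 0.18 on the log2 scale, whereas the Dsh value was -1.44 (interaction -1.64, SE 0.175, adjusted p = 1.5e-08). For E2F8 the sum was -0.21 and the Dsh value -1.16 (interaction -0.97, adjusted p = 1.18e-06). For E2F1 they were -0.33 and -0.96 (interaction -0.66, adjusted p = 1.83e-05). E2F7 went beyond its sum of 0.70 to 1.20 (interaction 0.48, adjusted p = 6.65e-06). RB1 (interaction 0.35, adjusted p = 5.48e-05) and TFDP2 (0.32, adjusted p = 0.00103) were above their sums too, and E2F3 was below its own (-0.28, adjusted p = 0.00439). With all 24 libraries in the fit, HK2 shKDM5C replicate 1 among them, E2F1, RB1 and TFDP2 lost their calls (adjusted p = 0.0694, 0.104 and 0.0827). That fit was not repeated without this replicate. In the fit of the ACHN libraries these calls were kept with each library left out. The values of E2F5 (0.09, SE 0.137) and E2F6 (-0.08, SE 0.0926) did not pass the test.

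In HK2 cells 2 members had a called interaction, beside 9.61% of all genes. E2F2 had single effects that summed to -0.03 and a Dsh value of -1.82 (interaction -1.79, SE 0.273, adjusted p = 0.00161). E2F7 had a sum of 0.33 and a Dsh value of 1.14 (interaction 0.81, SE 0.192, adjusted p = 0.0198). The E2F7 call was lost without shNC replicate 2, shYY1 replicate 1 or 2, or Dsh replicate 3 (adjusted p between 0.0515 and 0.0562). Without shKDM5C replicate 1 there were 6 called members, beside 28.7% of all genes, with E2F2 at -1.96 (adjusted p = 1.57e-09), E2F7 at 1.01 (adjusted p = 2.19e-09) and E2F8 at -0.58 (adjusted p = 0.0276). E2F1 was then at -0.30 (adjusted p = 0.0132), E2F5 at 0.53 (adjusted p = 0.0409) and TFDP2 at -0.25 (adjusted p = 0.0127). With that library kept, E2F8 (-0.63, adjusted p = 0.0782) was called with DESeq2 (0.0448) and with all 24 libraries in the fit (0.0134), and TFDP2 (-0.46, adjusted p = 0.132) with all 24 libraries (0.0171). TFDP2 was below its sum in HK2 and above it in ACHN cells.

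**Figure D3:**
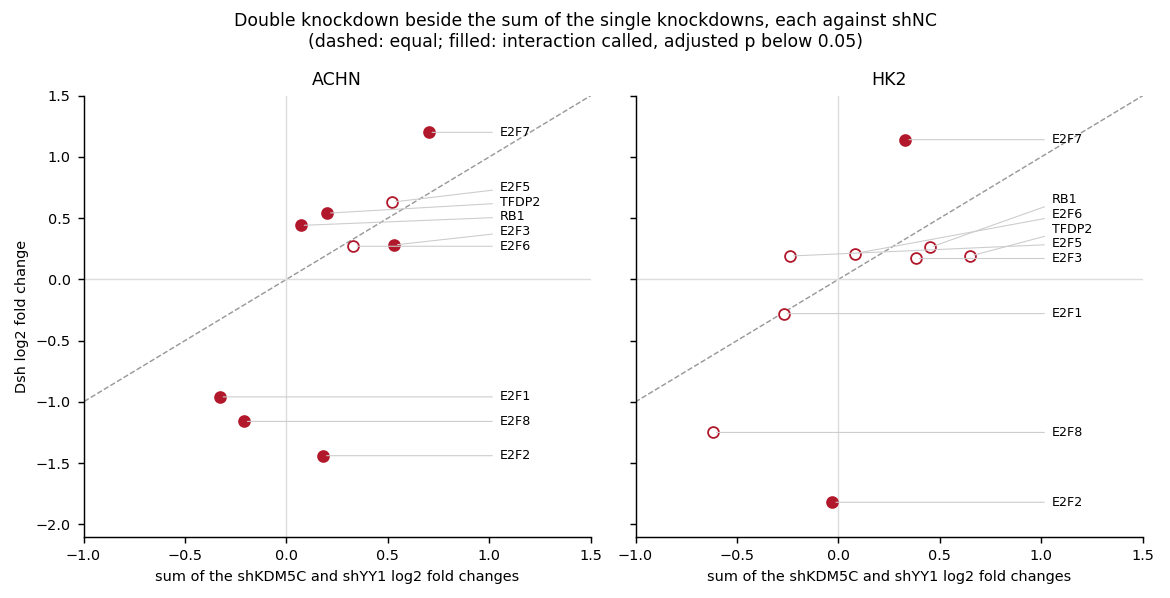
Log2 fold change of each member in Dsh cells (y axis) against the sum of its shKDM5C and shYY1 log2 fold changes (x axis), all relative to the same shNC libraries, with the line of equality dashed and filled points where the interaction was called. E2F2 lies far below the line in both lines (sum 0.18 and Dsh -1.44 in ACHN, sum -0.03 and Dsh -1.82 in HK2) and E2F7 above it.

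The response of each member was then compared between the lines by a test of the difference itself (ACHN effect minus HK2 effect). For Dsh cells 4 of 9 members differed, beside 46.0% of all genes. E2F1 fell more in ACHN cells (difference -0.67, SE 0.0978, adjusted p = 1.76e-06), and TFDP2 rose more there (0.37, adjusted p = 0.000269). With all 24 libraries in the fit the E2F1 difference was not called (adjusted p = 0.0603). E2F5 (0.46, adjusted p = 0.0204) was not called without shNC replicate 2 of ACHN (adjusted p = 0.0809) or of HK2 (adjusted p = 0.11). RB1 (0.20, adjusted p = 0.0283) lost its call without any of 8 of the 12 libraries (adjusted p between 0.0522 and 0.141). The differences of the other 5 genes were 0.40 ± 0.202 (SE) for E2F2, 0.13 ± 0.0813 for E2F3, 0.08 ± 0.121 for E2F6, 0.08 ± 0.0833 for E2F7 and 0.11 ± 0.178 for E2F8. E2F2 passed the test without HK2 Dsh replicate 2 (0.51, adjusted p = 0.0469).

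For YY1 knockdown alone 4 members differed between the lines, beside 33.1% of all genes: E2F5 (0.67, adjusted p = 0.00417), E2F2 (0.48, adjusted p = 0.0164), E2F7 (0.30, adjusted p = 0.00963) and E2F1 (-0.27, adjusted p = 0.0282). E2F5 was higher after YY1 knockdown in ACHN cells and was at -0.34 in HK2 cells (adjusted p = 0.0725). E2F1 lost its call without any of 7 of the 12 libraries (adjusted p between 0.0503 and 0.077), and E2F2 without ACHN shYY1 replicate 3, HK2 shNC replicate 3 or HK2 shYY1 replicate 1 (adjusted p = 0.0603, 0.0595 and 0.0516). E2F8 was called without HK2 shYY1 replicate 3 (0.45, adjusted p = 0.0259). For KDM5C knockdown no member passed edgeR's test of the difference, beside 11.9% of all genes, and 1 had an unadjusted p below 0.05. That member was TFDP2 (-0.53, adjusted p = 0.0705). It was called when any 1 of the 3 HK2 shKDM5C libraries was left out (adjusted p = 0.000572, 0.0271 and 0.0466 without replicate 1, 2 and 3). Without replicate 1, E2F2 (-0.44, adjusted p = 0.0305), E2F3 (0.26, adjusted p = 0.00352) and E2F7 (0.28, adjusted p = 0.0076) were called too.

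Genes known as E2F targets were then examined. Counts of called genes in this and the following lists stand beside the shares of all genes called. In Dsh against shNC cells these were 32.0% lower and 30.7% higher in ACHN, and 24.3% and 25.5% in HK2 cells. The shares of the other comparisons are those given with the members. Of 30 G1/S genes, which encode the replication licensing factors, the DNA polymerase subunits and the enzymes of nucleotide supply, 26 were lower and 2 higher in ACHN Dsh cells, with a median log2 fold change of -0.71 against -0.006 over all genes. GINS2 (log2 -1.86) and MCM6 (-1.63), which encode parts of the replicative helicase, CDC6 (-1.33), which loads it, and MCM4 (-1.09) changed most. The 2 genes that were higher were PCNA, the sliding clamp of the polymerases (0.19, adjusted p = 0.0016), and TYMS, which makes thymidylate (0.16, adjusted p = 0.0137). Both were named after their values were seen. In HK2 Dsh cells 28 of 30 were lower and 0 higher, with a median of -0.68, and GINS2 (-1.70) and MCM4 (-1.02) were among them. PCNA was at -0.68 there. In ACHN cells with a single hairpin the list was divided, with 6 lower and 11 higher in shKDM5C and 15 lower and 5 higher in shYY1 cells, and medians of 0.02 and -0.12. In HK2 cells 0 of 30 were called in shKDM5C cells (6 lower and 2 higher without replicate 1), and in shYY1 cells 5 fell and 3 rose. The interaction was called lower for 24 and higher for 1 of the 30 in ACHN and lower for 15 and higher for 0 in HK2 cells (24 and 0 without shKDM5C replicate 1).

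The genes of the later G2/M wave are in part E2F-driven and act in mitosis. In ACHN cells all 12 were higher in shKDM5C cells (median 0.60), 11 were higher in shYY1 cells (median 0.30), and 10 were lower in Dsh cells (median -0.37). The interaction was called lower for 12 of 12 (median -1.28). KIF20A, a mitotic kinesin, was at 0.59 in shKDM5C, 0.39 in shYY1 and -0.66 in Dsh cells. CCNB2, a mitotic cyclin, was at 0.46, 0.35 and -0.68. In HK2 Dsh cells 6 were lower and 1 higher (median -0.12), and the 1 that was higher was CCNB2 (0.18, adjusted p = 0.0146). With a single hairpin, 0 of 12 were called in HK2 shKDM5C cells (median 0.09, and 0 lower and 2 higher without replicate 1), while 4 fell and 1 rose in HK2 shYY1 cells (median -0.06). The HK2 interaction was called lower for 2 and higher for 0 of the 12 (median -0.32), and for 6 and 1 without shKDM5C replicate 1.

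Upstream of RB1, 15 genes of G1 cyclins, their kinases and inhibitors had 5 lower and 4 higher in ACHN Dsh cells. In HK2 Dsh cells 5 were lower and 6 higher, and the medians were -0.06 (ACHN) and 0.13 (HK2). Among all genes 32.0% were lower and 30.7% higher in ACHN, and 24.3% and 25.5% in HK2 Dsh cells. The ACHN counts of this list lay near the ACHN shares. The median over all genes lay between -0.015 and 0.019 in the 12 comparisons made within a line. CDKN1A, the p21 inhibitor of the kinases that release E2F, was at 134 ± 5.72 CPM in ACHN shNC cells, 224 ± 3.48 in shKDM5C, 279 ± 8.22 in shYY1 and 635 ± 39.9 in Dsh cells (SD, n = 3 each). It rose in ACHN Dsh cells by 2.25 on the log2 scale (adjusted p = 7.88e-17). In HK2 cells CDKN1A was at 49.7 ± 2.56 CPM in shNC, 28.3 ± 11.2 in shKDM5C, 56.4 ± 2.20 in shYY1 and 146 ± 4.18 in Dsh cells (SD, n = 3 each). It rose there in Dsh cells (log2 1.56, adjusted p = 1.89e-20) and by little in shYY1 cells (0.18, adjusted p = 0.044). The lower level in HK2 shKDM5C cells, whose libraries all lay below the controls, did not pass the test (-0.80, SE 0.282, adjusted p = 0.26). CCND1, the cyclin partner of CDK4 and CDK6, rose in ACHN Dsh cells (0.99, adjusted p = 5.34e-13) and was at -0.06 in HK2 Dsh cells (adjusted p = 0.455). CCND2 was at 0.321 ± 0.286 CPM in ACHN shNC and 21.0 ± 1.44 CPM in Dsh cells (SD, n = 3 each), and it fell in HK2 Dsh cells (-1.40, adjusted p = 5.56e-13). CDK6 rose in both (0.77 and 0.37).

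Among the remaining pocket protein and dimer genes, RBL1, which encodes p107, fell in ACHN (-0.77, adjusted p = 5.26e-07) and HK2 Dsh cells (-0.43, adjusted p = 5.54e-06). RBL2, which encodes p130, rose in ACHN (0.35, adjusted p = 7.39e-06) and fell in HK2 Dsh cells (-0.18, adjusted p = 0.0163). E2F4 (0.10 and 0.06) and TFDP1 (0.09 and -0.05) did not pass the test in either line. E2F4 was at 107 ± 1.93 CPM in ACHN and 102 ± 2.40 CPM in HK2 control cells (SD, n = 3 each).

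Of 7 apoptosis genes known as E2F1 targets, 1 was lower and 3 were higher in ACHN Dsh cells (median 0.13). Of the 6 tested in HK2 Dsh cells 0 were lower and 2 higher (median -0.02). Among all genes 32.0% were lower and 30.7% higher in ACHN, and 24.3% and 25.5% in HK2 Dsh cells. BBC3, which encodes the death-promoting protein PUMA and is also a p53 target, rose in ACHN (2.25, adjusted p = 1.22e-12) and HK2 Dsh cells (0.92, adjusted p = 6.97e-07). APAF1, the core of the apoptosome, rose in ACHN Dsh cells (0.37, adjusted p = 9.83e-06) and was at -0.06 in HK2 Dsh cells (adjusted p = 0.459). Among 8 germline genes known as E2F6 targets, 5 were tested in ACHN and 4 in HK2 cells, and 0 and 1 were called in Dsh cells. TDRKH was the one that rose (HK2, 0.60, adjusted p = 3.27e-05). In ACHN shKDM5C cells 4 of the 5 were lower (median -0.53), beside 27.7% of all genes. MAEL was lower by the most (-1.69, adjusted p = 0.00063), a gene named after its value was seen. Of the genes tested in ACHN cells, only TDRKH averaged 10 CPM or more in shNC or Dsh cells. The fold changes of the others, MAEL included, thus rest on low levels. Of the 10 E2F6 partners in the variant Polycomb complex, 5 were lower and 2 higher in ACHN Dsh cells. In HK2 Dsh cells 3 were lower and 4 higher. As most of all genes tested were called in ACHN Dsh cells, so many calls there are not particular to this list. RING1, a ubiquitin ligase subunit, fell in both (-1.23 and -0.21), and L3MBTL2 rose in both (0.82 and 0.26).

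**Figure D4:**
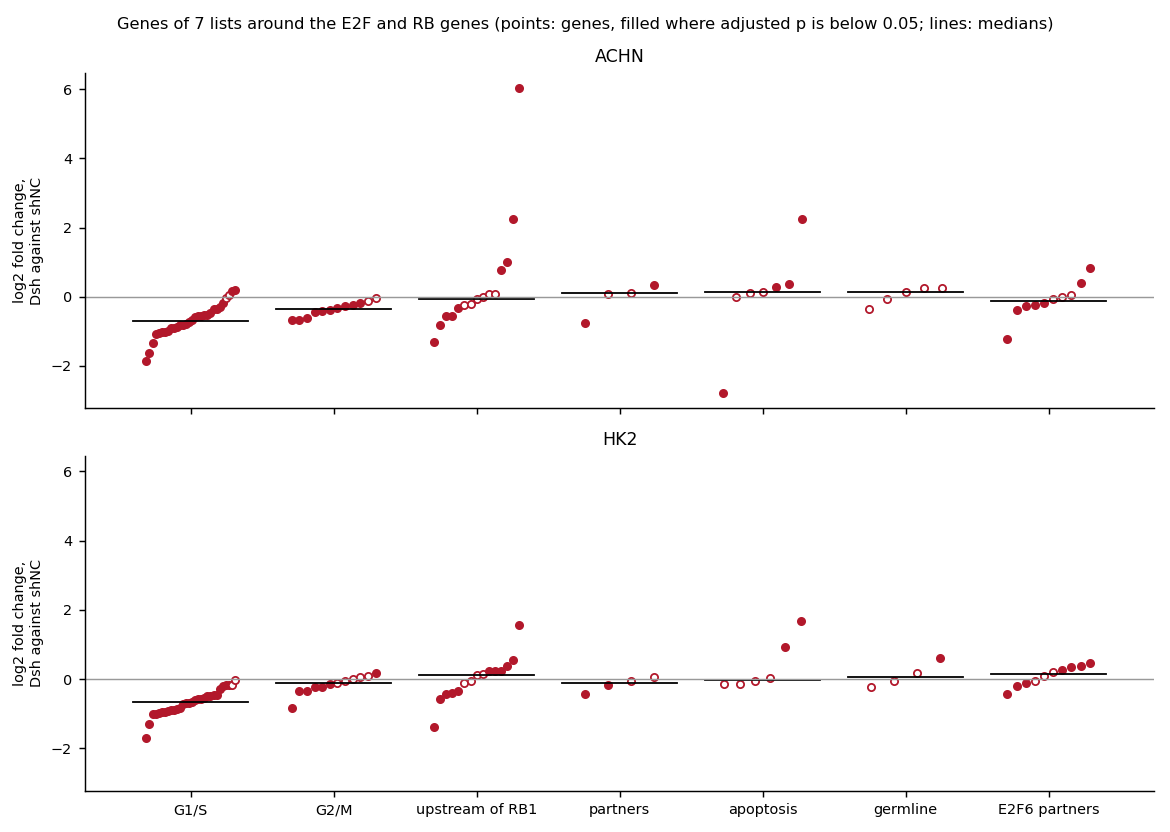
Log2 fold change in Dsh against shNC cells (y axis, the same scale for both lines) of the genes in 7 lists around the E2F and RB genes, each point a gene, filled where the adjusted p is below 0.05, with a line at the median of each list. The G1/S genes lie below 0 with few exceptions in both lines (medians -0.71 and -0.68), whereas the genes upstream of RB1 spread to both sides.

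Genes whose log2 levels followed a member most closely were sought over the 12 libraries of each line, by the lower of the 2 Pearson correlations and with a minimum of 0.9. The libraries of a line share 4 groups, so these values describe a common pattern over the groups. E2F7 was closest to HMGA2 (lower r = 0.975), WDFY1 (0.967) and FAS (0.963). E2F2 was closest to ADAMTS15 (0.957), FGFR2 (0.949) and TNFRSF19 (0.94), and E2F8 to ADAMTS15 (0.948), FKBP3 (0.948) and MCM6 (0.943). RB1 was closest to IL13RA1 (0.969), SYNRG (0.965) and SPRED1 (0.964), with HK2 values of 0.911, 0.953 and 0.91 without HK2 shKDM5C replicate 1. E2F1 was closest to SART1 (0.974), CSRP1 (0.974) and MYL6 (0.972), and these rested in part on HK2 shKDM5C replicate 1, without which the HK2 values were 0.896, 0.86 and 0.927. E2F3, E2F5, E2F6 and TFDP2 had no gene at 0.9.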

How the data were processed

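Total RNA of 24 libraries (8 groups of 3) was sequenced. Per the labels and methods, the authors aligned paired reads to hg38 with HISAT2 2.0.5 and used featureCounts to count the pairs of each gene. The version is 2.0.1 in the file headers and 1.5.0-p3 in the submitters' processing notes. The deposited values are raw counts of Ensembl release 84 genes, 1 library per table, not normalised and counted without strand.

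Counts were tested with edgeR 4.0.16 in R 4.3.3 (filterByExpr, TMM, quasi-likelihood F test on the groups compared only, Benjamini-Hochberg adjustment over all genes tested, called at an adjusted p below 0.05). Each interaction used 12 libraries, as did each difference between lines. CPM values were scaled with TMM factors over all 24 libraries. Standard errors were derived from the F statistic. An exact permutation test of 3 against 3 libraries cannot go below p = 0.1. The steps were tested on simulated counts.

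The members, lists and rules were chosen with earlier results of these data known. Named were all members, KDM5C, YY1 and, per list, at most 4 genes with the largest change in ACHN Dsh cells that averaged 10 CPM or more in shNC or Dsh cells, besides genes with a role beside a member. Lists were described by counts and medians, with no set test. Correlations used log2(CPM + 0.5). Alternatives were DESeq2 1.42.0, other scalings and filters, all groups in the fit, a replicate block, a log2 fold change of at least 1 and each library left out. Promoters came from the RefSeq table for GRCh38.p14. Counts of overlapping genes are uncertain because strand was not used.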

Additional observations from a re-analysis of the deposited data

Results flagged for a closer look

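Each of these members was called in a test of the difference between the 2 lines. It was edgeR's quasi-likelihood test on 12 libraries, of the ACHN effect minus the HK2 effect on the log2 scale. For YY1 knockdown 4 of 9 members were called, beside 33.1% of all genes, and for Dsh cells 4 of 9, beside 46.0%. With DESeq2, E2F1 after YY1 knockdown (adjusted p = 0.0516) and RB1 in Dsh cells (adjusted p = 0.0699) were not called. Calls lost on leaving out 1 library are given with the results. After YY1 knockdown the difference was 0.67 for E2F5 (adjusted p = 0.00417), with 11.4 to 12.1 CPM in ACHN shYY1 against 8.86 to 9.62 in shNC libraries, and 9.92 to 13.5 against 13.8 to 18.5 CPM in HK2 cells. It was 0.48 for E2F2 (adjusted p = 0.0164), 0.30 for E2F7 (adjusted p = 0.00963) and -0.27 for E2F1 (adjusted p = 0.0282). The calls of E2F2, E2F7 and E2F1 were lost with all 24 libraries in the fit (adjusted p = 0.177, 0.158 and 0.602), and that of E2F5 was not.

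In Dsh cells the difference was -0.67 for E2F1 (adjusted p = 1.76e-06), where ACHN libraries fell to between 10.5 and 11.2 CPM from 20.1 to 21.9, and HK2 libraries to between 66.1 and 67.0 CPM from 77.9 to 84.3. It was 0.37 for TFDP2 (adjusted p = 0.000269), 0.46 for E2F5 (adjusted p = 0.0204) and 0.20 for RB1 (adjusted p = 0.0283). With all 24 libraries in the fit only TFDP2 was still called, and the adjusted p was 0.0603 for E2F1, 0.0703 for E2F5 and 0.397 for RB1. KDM5C and YY1 were themselves depleted to different depths in the lines, by -0.80 and -0.51 in ACHN and -1.49 and -1.49 in HK2 Dsh cells. The part of this difference in the values above was not tested.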

How the results depend on the processing

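Of 648 values of single members under alternatives (72 results against shNC or of an interaction), 601 kept their direction and side of the threshold, 19 lost their call, 18 gained one and 10 changed sign. None of the 10 was called as reported. The 19 losses do not count the calls removed by also requiring a log2 fold change of at least 1, which are given below. Nor do they count each left-out library of a result separately, and those are named with the results. With total counts in place of TMM, E2F6 went to -0.03 (HK2 shKDM5C), -0.01 (HK2 shYY1) and 0.01 (ACHN interaction), and the HK2 interaction of E2F1 to 0.05. The latter was 0.01 without a filter and 0.01 under the replicate block, and -0.30 to 0.21 with 1 library left out. Leaving out 1 library also gave -0.00 to 0.05 for E2F6 and -0.09 to 0.02 for E2F7 in HK2 shYY1 cells, and -0.34 to 0.08 for the HK2 interaction of RB1.

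Counts of members called that moved by over 1.5 times were as follows. With all groups in the fit, HK2 shYY1 had 0 and HK2 Dsh 3 against shNC, the interactions 4 (ACHN) and 4 (HK2), and the differences between lines 1 (shKDM5C), 1 (shYY1) and 1 (Dsh). With a log2 fold change of at least 1 also required, 0 remained in ACHN shKDM5C, 0 in ACHN shYY1, 3 in ACHN Dsh, 0 in HK2 shYY1 and 3 in HK2 Dsh cells against shNC, 2 in ACHN Dsh against shKDM5C, 2 in ACHN and 2 in HK2 Dsh against shYY1, 3 between controls, 1 in each interaction (ACHN 1, HK2 1), and 0 (shYY1) and 0 (Dsh) between lines. The shKDM5C difference between lines had 1 under total counts, and the Dsh difference 2 without a filter. With each library left out the counts ran from 3 to 6 (ACHN shYY1), 0 to 3 (HK2 shKDM5C), 1 to 4 (HK2 shYY1), 1 to 4 (HK2 Dsh against shKDM5C), 1 to 6 (HK2 interaction), and for the differences between lines 0 to 4 (shKDM5C), 2 to 4 (shYY1) and 2 to 4 (Dsh). The cause was not tested, apart from the fewer samples or stricter threshold by construction.

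The replicate numbers did not pair the libraries, since 30 correlations of same-numbered deviations lay between -0.188 and 0.0801. With the number as a block, the E2F7 call of HK2 Dsh against shKDM5C was lost (0.80, adjusted p = 0.0685), E2F5 was called in HK2 shYY1 cells (-0.34, adjusted p = 0.0359) and TFDP2 in HK2 Dsh against shYY1 cells (-0.13, adjusted p = 0.0433). Neither gain was particular to the block: E2F5 was also called with total counts (0.0479) and without a filter (0.0494), and TFDP2 under the 4 settings named with its result and without 1 Dsh library. The block changed no other call of a member, and KDM5C itself was then not called in HK2 shKDM5C cells (-1.79, adjusted p = 0.0819). Depth limits E2F2 most, with 58 counts in 1 Dsh library.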

Other observations

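The balance of the repressor E2F7 to the activator E2F1, a measure chosen after the levels were seen, was taken per library as the ratio of their CPM per kilobase. In ACHN cells it was 0.683 to 0.766 in shNC, 1.08 to 1.18 in shKDM5C, 0.943 to 0.991 in shYY1 and 3.11 to 3.53 in Dsh libraries, so the 4 groups did not overlap. In HK2 cells it was 0.261 to 0.305 in shNC, 0.217 to 0.270 in shYY1 and 0.708 to 0.803 in Dsh libraries. The HK2 shKDM5C libraries ran from 0.336 to 1.13, with replicate 1 at the top. Between E2F7 and its relative E2F8 the median ratio went from 1.62 to 7.38 in ACHN and from 2.47 to 13.2 in HK2 cells, from shNC to Dsh.

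TP73, a p53 relative and an E2F1 target, fell in all 3 ACHN knockdown groups, from 4.74 ± 0.585 CPM in shNC to 1.87 ± 0.194 in shKDM5C, 1.16 ± 0.494 in shYY1 and 0.689 ± 0.254 in Dsh cells (SD, n = 3 each), and in Dsh cells by 2.79 on the log2 scale (-2.79, adjusted p = 2.73e-08). This fold change rests on low levels, with 11 to 19 counts in the ACHN Dsh libraries. In HK2 libraries TP73 had 0 to 6 counts. PMAIP1, which encodes the death-promoting protein NOXA, rose in HK2 Dsh cells from 32.5 ± 1.15 to 103 ± 2.20 CPM (SD, n = 3 each; log2 1.68, adjusted p = 3.96e-20). PMAIP1 was not called in ACHN Dsh cells. CDKN2D, which encodes the p19 inhibitor of CDK4 and CDK6, fell in ACHN Dsh cells (-1.31, adjusted p = 7.79e-07), as did CDKN2C (-0.57, adjusted p = 2.5e-07). In HK2 Dsh cells CDKN2D rose (0.56, adjusted p = 0.00115) and CDKN2C fell (-0.36, adjusted p = 1.47e-06). These 4 genes were named after their values were seen.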
